A study of Rattus norvegicus with 3 samples.

Results

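Genes for the uptake and mitochondrial oxidation of fatty acids were followed across 3 rat calf muscle samples. The set holds 35 genes chosen by their role in the pathway. All 35 were found among the 15168 genes with a symbol on the array, through 39 of 18005 probes whose RefSeq accession leads to 1 symbol. RNA was measured on 3 one-colour (Cy3) Agilent arrays, 1 per group. One array held normal soleus, the calf muscle that keeps posture and is rich in slow fibres. Another held normal plantaris, which has more fast fibres, and the last held soleus taken 28 days after about 5 mm of the left sciatic nerve had been transected in the gluteal region. All samples came from 12-week-old male rats that the labels call Wistar Honnover, and the normal rats had no operation. How many rats were behind an array is not known here, and RNA came from pieces of whole muscle, which hold more than muscle fibres.

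Muscle takes fatty acids from blood lipoproteins and albumin, binds them in the cytosol, couples them to coenzyme A and carries them into mitochondria on carnitine. There the beta-oxidation spiral shortens them by repeated dehydrogenation, hydration, a further oxidation and thiolysis, and hands electrons to the respiratory chain. Slow fibres of postural muscle rest on this fuel more than fast fibres do, and PPAR and oestrogen-related receptors are known transcription factors of the pathway.

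Levels below are log2 signals minus the 75th percentile of the array they come from, so 0 is that percentile and 1 unit is a doubling. Folds are differences of these levels in log2 units, and ± gives the scanner software's error, which covers measurement only. With 1 array per group there is no replicate and no test, so every fold describes these arrays. Counts take genes at least 2-fold (1 log2 unit) apart, a rule of size. Both comparisons use the same normal soleus array, so their folds are not independent of each other. A brightness is compared between arrays for 1 gene and not between genes, since probes differ in how they bind. Summed levels of marker lists pool the probes of different genes, and each sum is compared between arrays only.

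All 35 genes were well above background on all 3 arrays, so no fold among them is a bound. Each was printed on the array in 2 to 10 spots, and the median SD between repeat spots was 0.037 log2 units on the normal soleus, 0.047 on the denervated soleus array and 0.032 on that of plantaris. Muscle identity was checked with markers. Of 8 skeletal muscle markers 6 were matched and all were well above background on every array, whereas of 3 liver markers Apoa1 was so on none, Alb only on the denervated array, and Ttr, though dim (-3.98, -3.95 and -4.89), on all 3. The summed level of 6 slow fibre markers was 2177 times the 75th percentile signal in normal soleus, 1007 in denervated soleus and 393 in plantaris, and that of 8 fast fibre markers 491, 606 and 4037. Such sums rest mostly on the brightest probes. The median level of the fast markers was 3.63, 6.23 and 9.16. After denervation 4 of these 8 were at least 2-fold higher (Pvalb 6.02, Actn3 5.15, Myh1 4.43 and Myh4 1.30) and 4 were within 2-fold. The denervated array lay on another slide and was scanned on another day than the other 2 arrays, so slide, scan and denervation cannot be told apart.

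The transcripts of the trifunctional protein, the enzyme complex of long-chain beta-oxidation, come from a pair of genes that stand head to head, and the stretch between them is shown because both were lower by similar amounts on each array. In RefSeq (build GRCr8), Hadhb starts at base 31907500 of chromosome 6 on the minus strand and Hadha at 31907801 on the plus strand, 301 bases apart. The 300 bases between the starts (chr6:31907501-31907800, plus strand, Hadhb to the left and Hadha to the right) hold no AGGTCA on either strand. The windows of Acadvl and Ucp3 are shown because both hold 2 copies of AGGTCA, the core hexamer of nuclear receptor sites, while their folds differed. After denervation Acadvl stood at -1.40 and Ucp3 at 0.21, and in plantaris Acadvl stood at -0.35 and Ucp3 at 1.47. In each comparison only 1 of the 2 genes was past 2-fold. The windows are the 250 bases before the start of Acadvl (chr10:55236706-55236955, minus strand) and of Ucp3 (chr1:164227660-164227909, plus strand), with the hexamer in capitals.
Hadhb-Hadha: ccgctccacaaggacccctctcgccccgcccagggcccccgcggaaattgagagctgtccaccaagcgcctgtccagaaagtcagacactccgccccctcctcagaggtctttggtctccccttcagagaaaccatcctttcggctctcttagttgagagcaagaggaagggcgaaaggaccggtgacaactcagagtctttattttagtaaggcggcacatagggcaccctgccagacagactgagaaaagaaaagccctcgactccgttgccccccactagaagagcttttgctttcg
Acadvl: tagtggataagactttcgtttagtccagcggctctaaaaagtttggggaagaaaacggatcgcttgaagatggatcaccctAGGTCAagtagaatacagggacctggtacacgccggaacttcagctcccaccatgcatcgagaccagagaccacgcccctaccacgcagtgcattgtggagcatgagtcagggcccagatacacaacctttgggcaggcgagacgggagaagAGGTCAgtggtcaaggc
Ucp3: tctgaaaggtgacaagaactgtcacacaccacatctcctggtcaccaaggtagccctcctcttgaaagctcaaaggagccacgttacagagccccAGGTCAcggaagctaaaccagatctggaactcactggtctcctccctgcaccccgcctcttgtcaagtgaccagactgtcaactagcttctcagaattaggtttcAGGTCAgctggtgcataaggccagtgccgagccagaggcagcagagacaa

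RefSeq windows of 300 bases (250 before the start and 50 after it) were matched for 29 of the 35 genes. AGGTCA stood on either strand in 7 of these 29 (24.1%), against 15.7% of all 27457 windows. It stood in 6 of 16 windows (37.5%) of the respiratory chain genes that are set beside the pathway below. The 7 genes of the set were Acadvl, Echs1, Eci1, Eci2, Hadhb, Slc27a1 and Ucp3, and their denervation folds ran from -1.81 in Hadhb to 0.21 in Ucp3. In Hadhb and Eci2 the match lay after the start, so that of Hadhb is outside the stretch shown above. Longer motifs were searched on both strands with no mismatch allowed, and each of them contains or overlaps the hexamer. The oestrogen-related receptor element TNAAGGTCA was in 0 of the 29 windows and in 1.15% of all windows. The direct repeat of the hexamer with any base between the copies, a site of PPAR with its RXR partner, was in 0 of 29 and in 0.0583% of all, and TGACCTTTG in 0 of 29 and in 0.379%. These matches are letters only, and their absence says only that those letters are not in these windows.

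After denervation most of the pathway was lower. Of the 35 genes 23 were at least 2-fold lower in denervated than in normal soleus and 2 were higher, with a median fold of -1.50. Across all 11318 genes compared, 13.4% were at least 2-fold lower and 8.73% at least 2-fold higher, with a median of 0.02. In the authors' deposited table those shares of all genes were 9.78% and 13.9%. Some general muscle transcripts were lower on the same array. Of the 6 skeletal muscle markers 4 were at least 2-fold lower (Acta1 -2.44, Ckm -1.48, Des -1.21 and Tnnc1 -1.06), with a median of -1.14, or 1 of 6 under quantile normalization. The other 2, Mb (-0.18) and Tnnc2 (0.13), were within 2-fold, and Tnnc1 is also among the slow fibre markers. All 8 fibroblast and tendon markers stood above 0 (median 0.88), 2 of them at least 2-fold higher (Comp 2.77 and Fmod 2.11). Their summed level was 105 times the 75th percentile signal in normal soleus, 244 in denervated soleus and 204 in plantaris. The part of either in the folds was not tested. The same 23 and 2 genes passed 2-fold under all 9 processing alternatives. The 10 genes within 2-fold were Cpt1a, Acadsb, Slc27a1, Acsl5, Acsl6, Slc22a5, Eci2, Acaa2, Decr1 and Ucp3, of which Acaa2 lay closest to the threshold at -0.98.

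In plantaris the pathway was lower by less. Of the 35 genes 6 were at least 2-fold lower than in normal soleus and 3 higher, with a median of -0.62 and 27 genes below 0. Across all 11015 genes compared, 6.11% were lower and 5.71% higher, with a median of 0.02. This count depends on the scale. On the scale of the E1A spike-in controls 16 genes were lower and 2 higher, with 11.4% and 3.06% of all genes. Against the median of all genes the set stood at -0.65 on that scale and at -0.65 in the main setting. These 2 values are equal by construction, since the spike-in scale shifts all genes of an array alike. Values just short of 2-fold were those of Cpt1b (-0.98) and Slc22a5 (0.99).

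**Figure D1:**
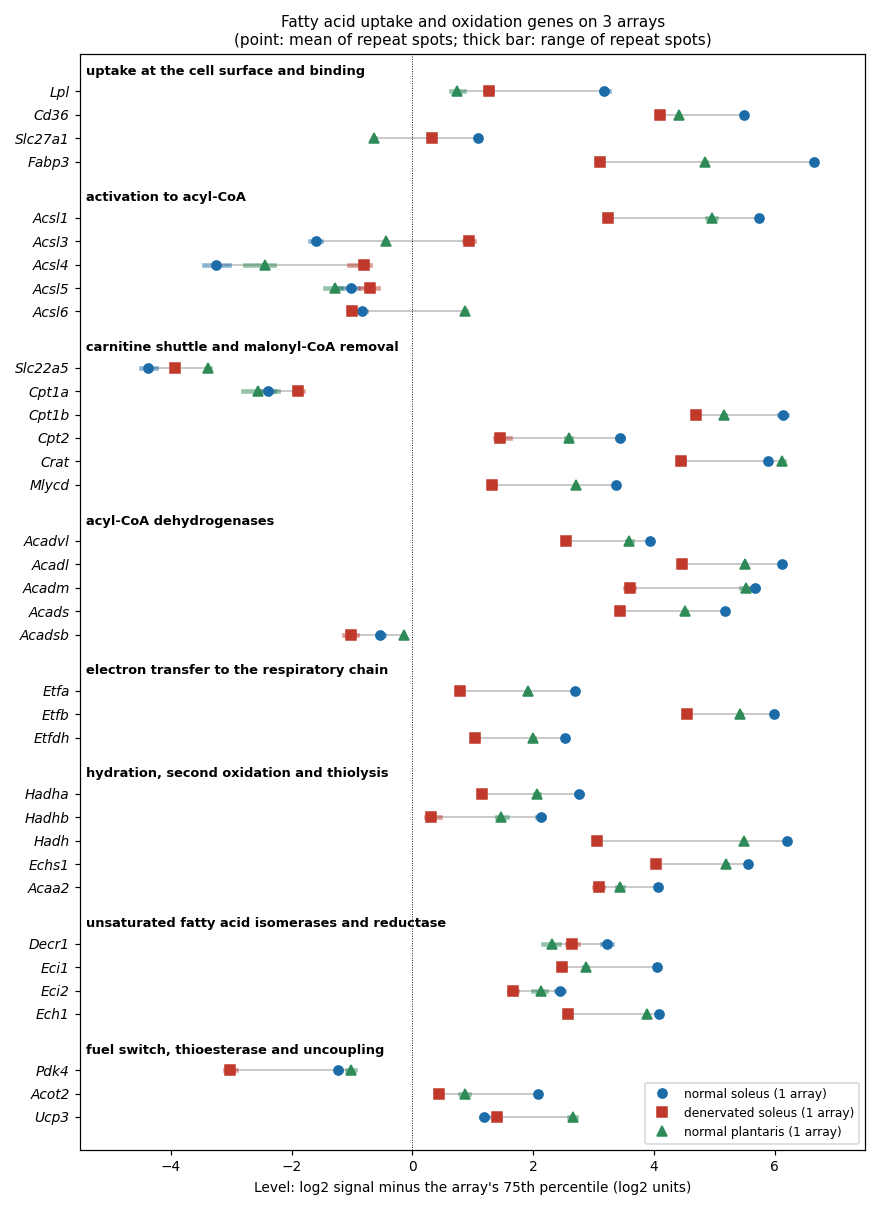
Level of each of the 35 genes on the normal soleus, denervated soleus and normal plantaris arrays (x axis: log2 signal minus the array's 75th percentile), ordered by step of the pathway; points are means of repeat spots and thick bars their range. On this scale the order is normal soleus, then plantaris, then denervated soleus in 22 of 35 genes.

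The plot of levels by step shows the order of the 3 muscles for each gene. The denervated soleus had the lowest level in 26 of 35 genes, and the normal soleus the highest in 25. The full order normal soleus, plantaris, denervated soleus was seen in 22 genes, and in 21 of these both gaps were larger than the scanner error. Acadm was the exception, with normal soleus and plantaris within that error. Plantaris had the highest level in 6 genes (Acsl6, Slc22a5, Crat, Acadsb, Pdk4 and Ucp3). The denervated soleus was highest in 4 (Acsl3, Acsl4, Acsl5 and Cpt1a). These orders hold for the main scale, and the scanner error does not cover the choice of scale. The E1A spike-in scale raised denervation folds by 0.19 and moved plantaris folds by -0.37, so the counts of orders change with it. Cd36 (4.10 in denervated soleus, 4.41 in plantaris) and Acaa2 (3.08 and 3.44) were then lowest in plantaris. So were Cpt1b, Eci1, Eci2 and Acot2, and all of these are among the 22 genes above.

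Uptake and binding in the cytosol was the step in which the most genes were lower in both comparisons. Fabp3, the fatty acid binding protein of heart and muscle, stood at 6.65 in normal soleus, 3.11 in denervated soleus and 4.85 in plantaris. Its signal was thus 11.7 times lower after denervation (-3.54 ± 0.20), the 59th lowest of 11318 folds, and 3.49 times lower in plantaris (-1.80 ± 0.20). Lpl, the lipase that frees fatty acids from lipoproteins at the capillary wall, stood at 3.18, 1.27 and 0.74 in the same order. It was lower in plantaris (-2.44 ± 0.20) than in denervated soleus (-1.91 ± 0.20), and it was the 103rd lowest of 11015 folds in plantaris.

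Cd36, the membrane fatty acid translocase, stood at 5.49 in normal soleus, 4.10 in denervated soleus and 4.41 in plantaris. Its folds were -1.39 after denervation and -1.08 in plantaris, and a second, dimmer probe gave -1.28 and -1.14. Slc27a1, the fatty acid transport protein FATP1, stood at 1.08, 0.32 and -0.63. It was within 2-fold after denervation (-0.76) but at -1.71 in plantaris, so that plantaris had the lowest level, as for Lpl. All 4 genes of the step were past 2-fold in plantaris and 3 of 4 after denervation.

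Because adipocytes and capillary endothelium also express Lpl and Cd36, markers of these cells are given beside them. The summed level of 8 matched adipocyte markers of 9 was 15.5 times the 75th percentile signal in normal soleus, 67.9 in denervated soleus and 13.0 in plantaris, and 5 of the 7 measured were at least 2-fold higher after denervation. The sum rests mostly on Cfd (3.23, 5.63 and 2.97 in the same order). Lep was well above background on no array and Pck1 only on the denervated one. The denervation fold of Pck1 was thus a bound (2.53, or 0.44 with normexp background). Fabp4 (0.51) and Lipe (-0.24) were within 2-fold after denervation. The summed level of 8 matched endothelial markers of 9 was 14.96, 8.79 and 12.3. After denervation 3 of these 8 were at least 2-fold lower and 5 were within 2-fold, with a median of -0.28. In whole muscle, fewer cells of a type and less RNA per cell cannot be told apart, and the part of these cells in the folds was not tested.

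**Figure D2:**
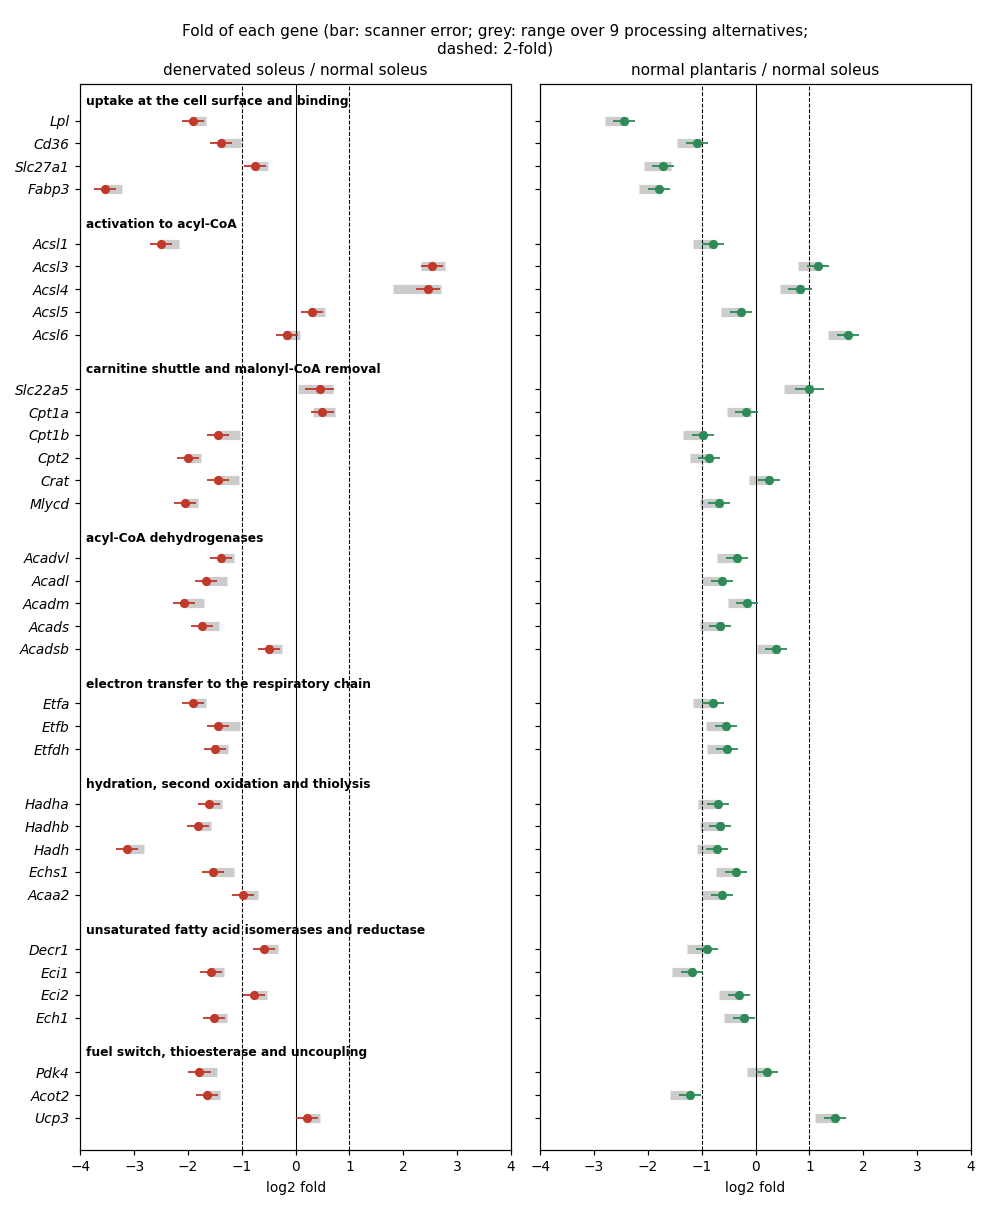
Log2 fold of each gene in denervated over normal soleus (left, red) and in plantaris over normal soleus (right, green), with the scanner error as a bar, the range over 9 processing alternatives in grey and 2-fold as dashed lines. After denervation 23 of 35 genes lie left of the lower line, and in plantaris 6 of 35.

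The long-chain acyl-CoA synthetases, which trap fatty acids as coenzyme A esters, differed in direction among themselves. Acsl1, the form tied to oxidation in muscle, stood at 5.75 in normal soleus, 3.25 in denervated soleus and 4.96 in plantaris, and was 5.67 times lower after denervation (-2.50 ± 0.20). Acsl3, a form of the endoplasmic reticulum and lipid droplets, stood at -1.60, 0.94 and -0.44. It was 5.81 times higher after denervation (2.54 ± 0.21), the 102nd highest of 11318 folds. Acsl4, which prefers arachidonate, stood at -3.26, -0.79 and -2.44 and was 5.51 times higher after denervation (2.46 ± 0.22, or 1.81 with normexp background). These 2 were the only members of the whole set more than 2-fold higher in denervated muscle.

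In plantaris the synthetases took another order. Acsl6, known best from brain, stood at -0.84 in normal soleus, -1.004 in denervated soleus and 0.87 in plantaris, where it was 3.28 times higher (1.71 ± 0.20) than in normal soleus. Its levels in normal and denervated soleus were within the scanner error of each other. Acsl3 was higher in plantaris by 1.16, or 0.79 on the spike-in scale, and Acsl4 by 0.82. Acsl5, a mitochondrial and reticular form, stood at -1.01, -0.71 and -1.29 and was within 2-fold in both comparisons.

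Passage into mitochondria needs the carnitine shuttle. Cpt1b, the muscle form of carnitine palmitoyltransferase 1 and the entry point of the shuttle, stood at 6.14 in normal soleus, 4.69 in denervated soleus and 5.16 in plantaris. Its folds were -1.45 ± 0.20 after denervation and -0.98 ± 0.20 in plantaris. A second probe of Cpt1b, far dimmer on every array, gave -1.33 and -1.08. Cpt1a, the liver form, stood at -2.39, -1.89 and -2.56, and unlike Cpt1b its fold after denervation was above 0 (0.50 ± 0.21). Cpt2, which removes carnitine inside the mitochondrion, stood at 3.44, 1.45 and 2.59 and was 3.99 times lower after denervation (-2.00).

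The genes around the shuttle differed from each other. Mlycd, the decarboxylase that destroys malonyl-CoA, the inhibitor of Cpt1, stood at 3.38 in normal soleus, 1.32 in denervated soleus and 2.70 in plantaris, with folds of -2.06 and -0.67. Crat, which makes acetylcarnitine, stood at 5.88, 4.45 and 6.13. It was lower after denervation (-1.44) but at 0.24 in plantaris, a value that turned to -0.13 on the spike-in scale. Slc22a5, the carnitine importer OCTN2, was dim on every array (-4.37, -3.93 and -3.38). Its folds of 0.44 ± 0.27 and 0.99 ± 0.27 carried the largest error of the set. In this step 4 of 6 genes were past 2-fold lower after denervation and none in plantaris, or 3 on the spike-in scale.

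The acyl-CoA dehydrogenases open each turn of the spiral and are sorted by chain length. Acadm, the medium-chain enzyme, stood at 5.68 in normal soleus, 3.61 in denervated soleus and 5.53 in plantaris. It was 4.20 times lower after denervation (-2.07 ± 0.20) and within the error of normal soleus in plantaris (-0.15 ± 0.20). Acads, the short-chain enzyme, stood at 5.17, 3.44 and 4.52, Acadl, the long-chain enzyme, at 6.13, 4.46 and 5.51, and Acadvl, the very long-chain enzyme, at 3.94, 2.55 and 3.59. Their denervation folds were -1.74, -1.67 and -1.40, and their plantaris folds -0.66, -0.62 and -0.35. The straight-chain enzymes were thus all past 2-fold lower after denervation, and none was in plantaris except Acads at -1.02 on the spike-in scale.

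Acadsb, which acts on short branched chains of isoleucine breakdown, stood at -0.53, -1.02 and -0.14. It was within 2-fold in both comparisons (-0.49 and 0.39). Electrons of all these dehydrogenases pass to the flavoprotein ETF and on to ubiquinone. Etfa and Etfb, its subunits, stood at 2.70, 0.79 and 1.91 and at 5.98, 4.55 and 5.43 in normal soleus, denervated soleus and plantaris. Etfdh, its oxidoreductase, stood at 2.53, 1.04 and 1.996. Folds of the 3 genes after denervation lay between -1.91 (Etfa) and -1.44 (Etfb), and in plantaris between -0.79 (Etfa) and -0.54 (Etfdh).

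The enzymes of the later reactions of each turn were lower after denervation too, 4 of 5 past 2-fold. Hadh, the 3-hydroxyacyl-CoA dehydrogenase for medium and short chains, stood at 6.21 in normal soleus, 3.06 in denervated soleus and 5.49 in plantaris. It was 8.83 times lower after denervation (-3.14 ± 0.20), the 94th lowest of 11318 folds, against -0.72 ± 0.20 in plantaris. Hadha, the alpha subunit of the trifunctional protein, stood at 2.77, 1.15 and 2.06, and Hadhb, its beta subunit, at 2.12, 0.31 and 1.47. Their folds were -1.61 and -1.81 after denervation and -0.70 and -0.65 in plantaris, and in each comparison the 2 genes differed by no more than the error of a fold. A second probe of Hadha gave -1.56 and -0.64.

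Echs1, the short-chain enoyl-CoA hydratase, stood at 5.56, 4.03 and 5.19 in normal soleus, denervated soleus and plantaris, with folds of -1.53 and -0.37. Acaa2, the mitochondrial thiolase, stood at 4.07, 3.08 and 3.44 and just missed 2-fold after denervation (-0.98 ± 0.20). The step as a whole had a median of -1.61 after denervation and -0.65 in plantaris.

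Auxiliary enzymes let unsaturated fatty acids enter the spiral, and 2 of 4 were past 2-fold lower after denervation (median -1.15) and 1 of 4 in plantaris (median -0.61). Eci1, an enoyl-CoA isomerase, stood at 4.06 in normal soleus, 2.48 in denervated soleus and 2.87 in plantaris, and was past 2-fold lower in both (-1.58 and -1.18). Ech1, a dienoyl-CoA isomerase, stood at 4.09, 2.57 and 3.88, lower after denervation only (-1.52 against -0.21). Decr1, the dienoyl-CoA reductase, stood at 3.22, 2.64 and 2.31, and Eci2, a second isomerase, at 2.44, 1.66 and 2.13. Both were within 2-fold after denervation (-0.58 and -0.78). Decr1 was lowest in plantaris (-0.91), or -1.28 on the spike-in scale.

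Genes that steer fuel choice split. Pdk4, a kinase that shuts pyruvate dehydrogenase and so spares glucose, stood at -1.23 in normal soleus, -3.01 in denervated soleus and -1.02 in plantaris. It was 3.46 times lower after denervation (-1.79 ± 0.21), and its 0.21 in plantaris turned to -0.16 on the spike-in scale. Acot2, a mitochondrial thioesterase, stood at 2.08, 0.44 and 0.86, with folds of -1.64 and -1.22 and of -1.19 and -1.41 on a second, dimmer probe. Acot2 has the close paralog Acot1 (-0.82 and -0.71), and how far their probes share signal is not known here. Ucp3, the muscle uncoupling protein, stood at 1.19, 1.40 and 2.66. It was 2.77 times higher in plantaris (1.47 ± 0.20) and near its normal level after denervation (0.21 ± 0.20).

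The fatty acid genes were then set beside mitochondrial genes that are not part of the set. All 18 respiratory chain genes chosen for this were past 2-fold lower after denervation, with a median of -1.51, or 10 of 18 under quantile normalization. In plantaris none of the 18 was past 2-fold, and their median was 0.09, or -0.28 on the spike-in scale. The median of the fatty acid genes minus that of the respiratory chain genes was 0.01 after denervation and -0.71 in plantaris. A shift shared by all genes of an array cancels in that difference, so most of the 9 alternatives could not move it. In plantaris it was -0.71 with normexp background, -0.53 under quantile normalization and -0.71 with the mean over a gene's probes. After denervation it was 0.01, 0.01 and 0.07 in the same order. With 1 array per group the difference could not be tested. Of 5 genes tied to mitochondrial mass 3 were past 2-fold lower after denervation and none in plantaris. Citrate synthase Cs stood at -1.41 after denervation and 0.10 in plantaris, and the outer membrane channel Vdac1 at -1.43 and 0.20. The import protein Timm44 stood at -1.30 after denervation, and Tomm20 (-0.61) and the chaperone Hspd1 (-0.58) were within 2-fold.

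**Figure D3:**
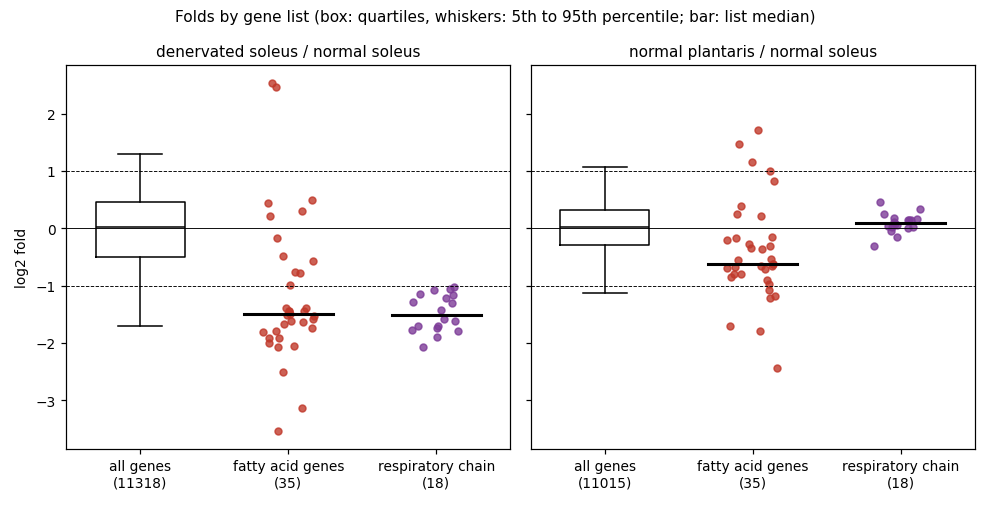
Log2 folds in denervated over normal soleus (left) and plantaris over normal soleus (right) for all genes (box of quartiles, whiskers from the 5th to the 95th percentile), the 35 fatty acid genes and 18 respiratory chain genes (points, with the median as a bar). The medians of the fatty acid and respiratory chain genes are -1.50 and -1.51 after denervation, and -0.62 and 0.09 in plantaris.

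Other genes of fatty acid handling were grouped by role into 10 lists. The counts in these lists are to be read beside the shares of all genes. After denervation 13.4% of all genes were at least 2-fold lower and 8.73% higher, and in plantaris 6.11% and 5.71%. Among carnitine genes outside the set, the mitochondrial carnitine carrier Slc25a20 stood at -1.49 after denervation and -0.84 in plantaris. The transporter Slc22a4 was higher after denervation (1.85), and the other 3 measured genes were within 2-fold in both comparisons. Of 5 further acyl-CoA dehydrogenase and electron transfer genes 2 were lower after denervation, the isovaleryl enzyme Ivd (-1.24) and the complex I assembly factor Acad9 (-1.23), and 1, Acad9, in plantaris (-1.10). Both missed 2-fold in the deposited table, with Ivd at -0.996 and Acad9 at -0.990. Pyruvate dehydrogenase, its regulators and the pyruvate carrier gave 8 lower and 1 higher of 11 after denervation (median -1.42), or 6 lower in the deposited table, where Dld (-0.96) and Pdp2 (-0.98) missed 2-fold. The higher one was the kinase Pdk3 (1.43, or 0.44 with normexp background), named after its value was seen. Among the lower ones were the carrier subunits Mpc1 (-2.56) and Mpc2 (-1.89), the subunit Dlat (-1.92) and the kinase Pdk2 (-1.42), whereas in plantaris 2 of 11 were lower, the phosphatase Pdp2 (-1.56) and the kinase Pdk1 (-1.55).

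Peroxisomal oxidation, the pathway for chains that mitochondria do not start on, stood nearer to the normal level. Of 16 measured genes 2 were lower after denervation and 1 higher, counts near the shares of all genes (13.4% and 8.73%). The median of the list was -0.18, which turned to 0.06 in the deposited table. Phyh, which acts on phytanic acid, was the 1 lower gene measured on both arrays (-1.76). The other lower gene, Acox2, and the higher one, Decr2, were bounds from 1 array (-2.36 and 1.29), named after their values were seen, which shrank to -0.94 and 0.00 with normexp background. In plantaris 1 of 15 was higher, the transporter Abcd2 (1.53), beside 5.71% of all genes.

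Genes of fatty acid import, binding and capillary handling outside the set had 3 lower and 2 higher of 15 after denervation (median -0.21, or 0.03 in the deposited table). The shares of all genes were 13.4% and 8.73%. Acss1, the mitochondrial acetyl-CoA synthetase, stood at 3.43 in normal soleus, -1.28 in denervated soleus and 1.80 in plantaris, with folds of -4.71 ± 0.20 and -1.63. The lipoprotein receptor Vldlr stood at -1.38 after denervation and Slc27a3 at 1.58, or 0.70 with normexp background. Gpihbp1, which holds lipoprotein lipase at the capillary wall, was within 2-fold in both comparisons (-0.35 and -0.32), unlike Lpl itself. Of 8 further thioesterases 3 were lower and 2 higher after denervation, with Acot13 at -2.11, Acot7 at -1.76 and Acot9 at 1.14. The remaining calls of both lists, named after their values were seen, were small or bounds. Dbi stood at -1.03 and Acot4 at -1.12, with 0.26 on another probe of Acot4, and Slc27a6 and Them5 were bounds of 1.47 and 1.11. Dbi missed 2-fold under quantile normalization (-0.71), and with normexp background Slc27a6 was at 0.22 and Them5 at 0.

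Lipid droplet genes had 5 lower and 1 higher of 14 after denervation (median -0.54), beside 13.4% and 8.73% of all genes. The lipase inhibitor G0s2 stood at -2.61 after denervation and -2.09 in plantaris, and Gpam, which starts triglyceride synthesis, at -2.18 and -1.33 (-0.92 in plantaris with normexp background). Cidec, a droplet protein of fat cells, was higher after denervation (2.83 ± 0.31, or 1.49 with normexp background). It is also 1 of the adipocyte markers given above, so it is part of their sum and counts. The droplet protein Plin5 (-2.17), the lipase Pnpla2 (-1.27) and Lpin1 (-1.20, or -0.89 with normexp background), named after their values were seen, completed the lower genes after denervation. In plantaris 4 of 14 were lower, Cidea at -3.32, G0s2, Gpam and Plin2 (-1.24, named in the same way). Of 13 genes around malonyl-CoA and ketone bodies 3 were lower after denervation. The ketone enzymes Oxct1 and Acat1 stood at -2.43 and -1.54, and Bdh1, named after its value was seen, was lower by a bound of -4.84 (-2.49 with normexp background). In plantaris Bdh1 was the 1 lower gene of 12, by a bound of -3.68 (-1.78 with normexp background). Acacb, which makes the malonyl-CoA that restrains Cpt1, stood at -0.05 and -0.14.

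Uncoupling proteins and carriers near Ucp3 gave 4 measured genes. Ucp2 was within 2-fold in both comparisons (0.13 and -0.34), and the ADP/ATP carrier Slc25a4 was at -1.06 after denervation (-0.78 under quantile normalization) and 1.99 in plantaris. Slc25a14, another mitochondrial carrier, was the 1 lower gene of 4 in plantaris (-1.38) and stood at -0.10 after denervation. Slc25a5, the paralog of Slc25a4, stood at -1.64 after denervation on 1 probe and 0.47 on another.

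Transcription regulators of the pathway were lower in 9 of 22 after denervation and higher in 1 (median -0.35), beside 13.4% and 8.73% of all genes. Perm1, a muscle regulator of mitochondrial genes, stood at 2.92 in normal soleus, -5.03 in denervated soleus and 2.69 in plantaris. Its folds were -7.95 ± 0.29 (-6.41 with normexp background) and -0.23. The coactivator Ppargc1b stood at -2.35 and -0.13, the receptor Rxrg at -2.20 and 2.02, Esrra at -1.66 and 0.04 and Ppara at -1.42 and -0.21. The higher regulator was Pparg, the adipocyte form of PPAR (1.70, named after its value was seen). Ppard gave -1.83 on 1 probe and -0.22 on another after denervation. Ppargc1a was within 2-fold in both (-0.19 and 0.61). In plantaris 2 of 21 regulators were higher and 1 lower, beside 5.71% and 6.11% of all genes. The higher ones were Rxrg and the kinase subunit Prkaa2 (1.30), and the lower one was Esrrg (-1.25, or -0.41 with normexp background). The median of the 21 regulators there was 0.03, or -0.34 on the spike-in scale.

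**Figure D4:**
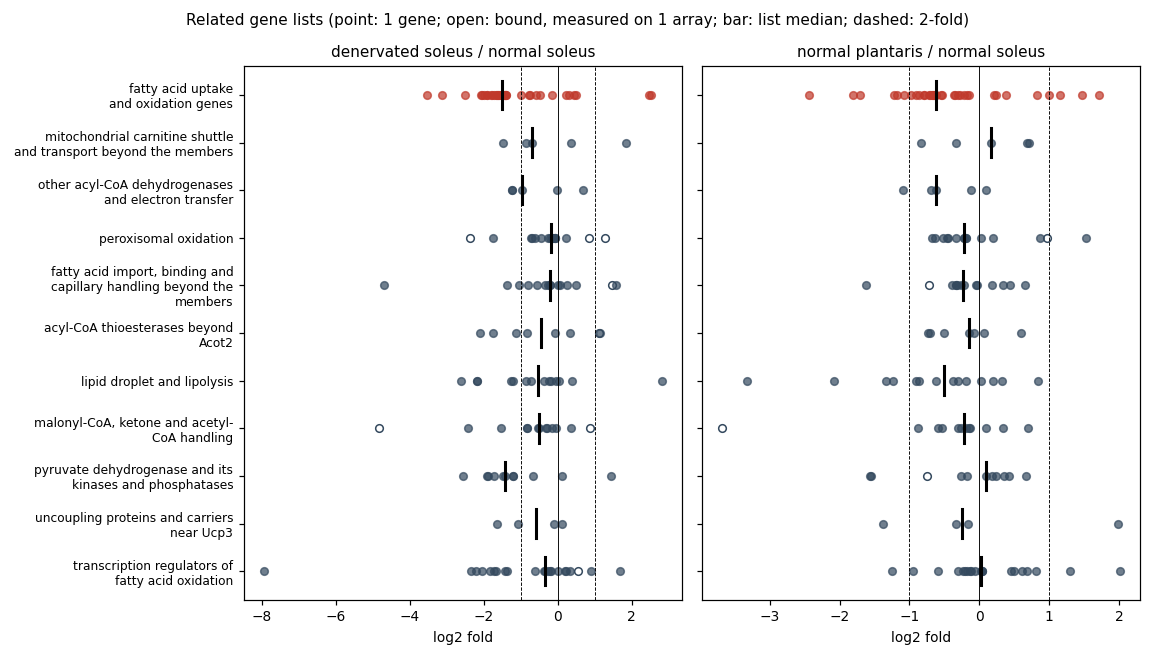
Log2 folds of the 35 fatty acid genes (red) and of 10 related lists (blue-grey), in denervated over normal soleus (left) and plantaris over normal soleus (right); open points are bounds and bars are list medians. After denervation the pyruvate dehydrogenase list has a median of -1.42 and the peroxisomal list of -0.18, against -1.50 for the fatty acid genes.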

How the data were processed

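The genes, lists and comparisons were chosen with earlier results of these data known. Per the file headers, the scanner software was Agilent Feature Extraction 10.10.1.1 for all arrays. The deposited processed signal is an intensity that this software background-subtracted and detrended within each array, per the file headers. Per the file headers, other columns hold raw spot and background intensity and flags. A value table the authors deposited holds intensity too, the processed signal times 1 factor per array (medians 1.60, 1.41 and 1.80 for normal soleus, denervated soleus and plantaris). The basis of these factors is unknown.

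From each log2 processed signal the array's 75th percentile (58717 spots without controls) was subtracted. Outlier spots (467 to 569 an array) were dropped; saturation occurred in 0. Repeat spots were averaged. A probe counted as well above background if no less than 50 percent of its spots did, and the brightest probe stood for a gene. A gene entered a comparison if well above background on 1 of the 2 arrays at least; where on 1 only, its fold is a bound taken against the other array's faintest signal well above background, or the gene's signal there if that is higher. Of 30367 probes, between 64.2% and 67.0% were well above background. Named genes were all 35 of the set, 12 regulators and partners fixed by name, and the 3 largest folds of each related list in each comparison among genes measured on both arrays; of these last, genes within 2-fold are mostly given as counts, 1 gene fixed by name is not reported here, and genes outside the rule are marked. Limma 3.58.1 in R 4.3.3 gave the normexp background and quantile alternatives; normexp used the median spot signal, since the files used here hold no mean. No test was run, and the fold steps were tested on simulated data. Gene names and promoter windows are RefSeq's (GRCr8); the array design names an older build, so no gene positions beyond those windows are given.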

Additional observations from a re-analysis of the deposited data

How the results depend on the processing

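No paired analysis was possible because each group has 1 array. Nor could an array be left out. For the 35 fatty acid genes 9 alternatives were run, and in none of them did a gene past 2-fold change sign. After denervation the median of -1.50 was -1.16 under quantile normalization and -1.25 in the deposited table, and between -1.51 and -1.30 in the other 7; the counts of 23 lower and 2 higher held in all 9. In plantaris the median of -0.62 was -0.99 on the E1A spike-in scale (8 control probes), and the 6 lower genes became 16. In the other 8 it lay between -0.73 and -0.56, with 6 to 8 lower and 3 or 4 higher genes. Acsl3 was the 1 gene to lose its 2-fold call in plantaris, on the spike-in scale (0.79).

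The scales moved all genes together. The median of all genes was 0.02 in both comparisons. After denervation it was 0.14 with the percentile taken over probes above background on all arrays, 0.21 on the spike-in scale and 0.26 in the deposited table. With no filter on dim probes it was -0.10, where the scale is unchanged and more genes enter. In plantaris it was -0.34 on the spike-in scale and -0.08 in the deposited table. Precision is limited by the number of arrays, and the dim genes Slc22a5 and Acsl4 moved most with the background method.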
